A study of Mus musculus with 26 samples.

Results

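Nucleic acid sensors and their adaptors were followed in murine EML4-ALK lung cancer cells exposed to alectinib, a tyrosine kinase inhibitor of ALK. The group held 10 genes chosen by symbol from the 55391 gene rows of the deposited count table, and all 10 were in the table. They were Ddx58, Ifih1, Dhx58, Tlr3, Zbp1, Mavs, Tbk1, Eif2ak2, Adar and Trex1. RNA sequencing covered EA1, EA2 and EA3, lines isolated from C57BL/6 mice that carry the EML4-ALK genotype, and each received 100 nM alectinib or 0.1% DMSO, the solvent control. Every group carried the fusion, so no ALK-negative cells were compared. Each line, treatment and day gave 1 library, on days 1, 2, 3 and 5, so that 24 libraries entered the tests, with the 4 days of a line and treatment as its replicates. Nothing in the labels says that the days came from separate experiments, and p-values therefore measure the spread between these libraries.

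Cells detect foreign or misplaced nucleic acids with dedicated receptors. RIG-I (Ddx58) and MDA5 (Ifih1) bind RNA in the cytosol and signal through MAVS on mitochondria to the kinase TBK1, which activates interferon regulatory factors, whereas TLR3 binds double-stranded RNA in endosomes. PKR (Eif2ak2) and ZBP1 couple RNA binding to a translation block and to cell death, while the editing enzyme ADAR and the exonuclease TREX1 limit the RNA and DNA that these sensors can bind. Several of these genes are themselves induced by interferon.

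Interferon-induced genes often hold the interferon-stimulated response element, whose core holds GAAA, any 2 bases and GAAA again, so promoter windows of 300 bases (250 before and 50 after each RefSeq start, build GRCm38.p6) were searched on both strands. Windows were at hand for 8 of the 10 members, and 3 of these genes held the motif, against 3.99% of the 27025 genes with a window (3.44% of 32851 windows). The 3 were Ddx58, Ifih1 and Eif2ak2, and in each the match lay after the start, inside an annotated exon. They are shown because these 3 genes recur in the comparisons below, and capitals mark the motif. The Ddx58 match is on the other strand. Positions are counted from 1 at the first transcribed base. The windows of Tlr3, Mavs, Tbk1, Adar and Trex1 did not hold these letters, and Dhx58 and Zbp1 had no window. A match describes letters only.
Ddx58, chr4:40239814-40239925, minus strand, positions -100 to 12: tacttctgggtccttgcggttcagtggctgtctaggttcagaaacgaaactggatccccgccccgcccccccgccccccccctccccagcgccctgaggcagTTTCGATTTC
Ifih1, chr2:62646206-62646235, minus strand, positions 21 to 50: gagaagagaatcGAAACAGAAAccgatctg
Eif2ak2, chr17:78882545-78882672, minus strand, positions -100 to 28: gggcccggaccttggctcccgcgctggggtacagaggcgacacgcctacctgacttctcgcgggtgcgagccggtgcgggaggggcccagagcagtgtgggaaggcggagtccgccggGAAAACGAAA

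Library totals ran from 5780062 to 11732401 counts, so that 3 counts, the floor used here, equal a CPM (the count scaled to library size) of 0.251 to 0.530 on the same scale. Floors and count intervals cover counting error only. Another 2 libraries carry the label EA3 at day 7. They correlated across genes with EA2 libraries of the same treatment (median r = 0.955 for DMSO and 0.972 for alectinib) more than with EA3 libraries (0.866 and 0.861). They entered no test given here other than the alternative with all 26 libraries. The epithelial keratins Krt8, Krt18 and Krt19 were expressed in all 3 lines, and the summed level of 5 epithelial markers went from 1811 to 2695 CPM in DMSO to 567 to 1169 CPM in alectinib in EA2, while those ranges overlapped in EA1 and EA3. In DMSO the EA2 sum was mostly Krt18 (1295 to 2003 CPM). Krt18 fell without overlap in each line, to 238 to 609 CPM in EA2. In EA1 it went from 1335 to 2502 CPM in DMSO to 490 to 1089 CPM in alectinib. In EA3 it went from 1403 to 1911 CPM to 440 to 1033 CPM. Cdh1, which encodes E-cadherin, went the other way in EA2, from 44.9 to 96.9 CPM in DMSO to 147 to 277 CPM in alectinib. Epcam reached at most 7 counts in any EA2 library. In EA1 it stood at 0.321 to 3.23 CPM in DMSO and 4.69 to 7.77 CPM in alectinib. In EA3 it stood at 75.2 to 211 and 88.5 to 146 CPM. Besides Krt18 and Epcam, the epithelial markers overlapped between treatments in EA1 and EA3. The alveolar type 2 markers Sftpc, Sftpb, Nkx2-1 and Napsa together stayed at or under 1.42 CPM. Of the leukocyte markers, Ptprc reached at most 4 counts in any library. Of the other 6, 4 had at most 3 counts in any library. Cd68 was expressed in all 3 lines, with overlapping treatments, and in EA3 stood at 5.11 to 91.6 CPM in DMSO and 6.71 to 21.1 CPM in alectinib. Csf1r was at 0.350 to 2.64 and 1.84 to 6.87 CPM in EA3, also overlapping, and at most 6 counts in any EA1 or EA2 library. The summed level of 7 fibroblast markers was higher with alectinib in each line. It stood at 8.34 to 43.0 CPM in DMSO and 81.6 to 224 CPM in alectinib in EA1. In EA2 it stood at 57.9 to 71.2 and 119.7 to 239 CPM, in EA3 at 10.2 to 20.1 and 84.4 to 249.5 CPM. The EA1 sum was mostly Pdgfrb (67.5 to 150 CPM in alectinib), the EA2 sum Dcn and Col1a2, and the EA3 sum Col1a1. Of the 7, Col1a1 alone rose without overlap in each line. Dcn overlapped in EA2, Pdgfra overlapped in each line and Thy1 had at most 2 counts in any library. The 3 endothelial markers summed to 1.97 to 5.71 CPM in DMSO and 0.177 to 0.902 CPM in alectinib in EA2. Their sums overlapped in EA1 and EA3. The part of these shifts in the results below was not tested. In bulk cultures, fewer cells that express a gene and less RNA per cell cannot be told apart.

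Of the 10 members, 8 passed the filter on low counts and were tested among 14264 genes. Zbp1 was too low and Trex1 had 0 counts in all 26 libraries. With alectinib, 4 members were higher in EA1 (Ddx58, Ifih1, Tlr3 and Eif2ak2), 2 in EA2 (Ddx58 and Tbk1) and 5 in EA3 (Ddx58, Ifih1, Tlr3, Eif2ak2 and Tbk1), at an adjusted p under 0.05 (Benjamini-Hochberg over all genes) in edgeR's quasi-likelihood test with line and day as a block. The share of all tested genes called higher was 19% for EA1, 13% for EA2 and 17.5% for EA3. No tested member was lower at that threshold in any line, and none reached an unadjusted p under 0.05 in that direction. DESeq2 also called 0 members lower in each line. Genes called lower made up 14.6% of all genes for EA1, 11.3% for EA2 and 15.1% for EA3. The median log2 fold change of the 8 tested members was 0.49, 0.43 and 0.70 by line (EA1, EA2, EA3), beside 0.06, 0 and 0.07 over all genes tested. The EA2 median includes Ifih1, which had at most 2 counts in any EA2 library. Ddx58 was the one member called higher in all 3 lines, as were 5.78% of all genes, and its call held in each of 12 alternatives per line (log2 fold changes of 2.05 to 2.57, 1.81 to 2.06 and 1.83 to 2.09 in EA1, EA2 and EA3).

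**Figure D1:**
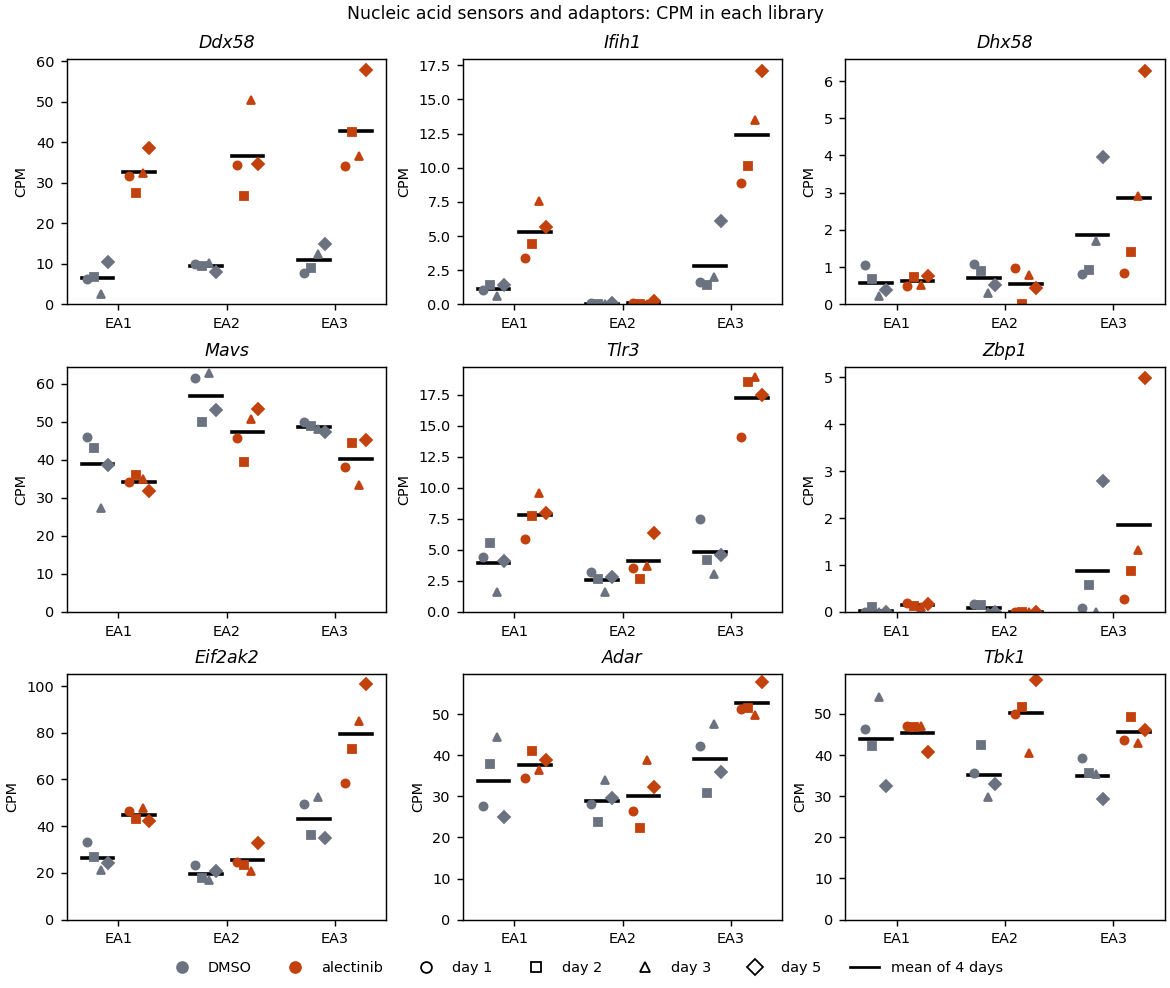
CPM of 9 members in each library (vertical axis, from 0, a separate scale per gene) by line, with DMSO in grey, alectinib in orange, 1 marker shape per day and a black bar at the mean of 4 days. Ddx58 in alectinib sits above DMSO in every line, and Ifih1 sits near 0 in EA2 under both treatments.

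RIG-I, the sensor of RNA ends encoded by Ddx58 (chromosome 4 from 40203773 to 40239828, minus strand, GENCODE on mm10), rose in all 3 lines. In EA1, Ddx58 stood at 6.17, 6.80, 2.67 and 10.5 CPM in DMSO on days 1, 2, 3 and 5 and at 31.7, 27.6, 32.4 and 38.5 CPM in alectinib. In EA2, the values were 9.85, 9.36, 10.2 and 8.08 CPM in DMSO and 34.4, 26.7, 50.4 and 34.6 CPM in alectinib. In EA3, they were 7.81, 8.98, 12.5 and 14.8 CPM in DMSO and 34.1, 42.5, 36.7 and 57.8 CPM in alectinib. The lowest alectinib library lay above the highest DMSO library in each line, a separation in this direction that 18.4% of all genes showed for EA1, 14.3% for EA2 and 12.9% for EA3. The fitted rise was 5.35-fold in EA1 (log2 fold change 2.42, standard error 0.24, edgeR adjusted p = 2.17e-05), 3.82-fold in EA2 (1.93, standard error 0.23, adjusted p = 8.64e-05) and 3.91-fold in EA3 (1.97, standard error 0.23, adjusted p = 8.01e-05). The effect did not differ detectably between lines (2 degrees of freedom, edgeR adjusted p = 0.514). The difference of EA3 from EA2 had a 95% interval of -0.68 to 0.75 on the log2 scale. Against EA1, the effect differed by -0.48 in EA2 (-1.21 to 0.24) and by -0.45 in EA3 (-1.17 to 0.27).

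MDA5, the sensor of long double-stranded RNA encoded by Ifih1 (chromosome 2 from 62595798 to 62646255, minus strand), rose by a like factor in EA1 and EA3 and was nearly absent from EA2. In EA1, Ifih1 stood at 1.05, 1.45, 0.641 and 1.42 CPM in DMSO on days 1, 2, 3 and 5 and at 3.38, 4.41, 7.56 and 5.698 CPM in alectinib. In EA3, it stood at 1.62, 1.3995, 1.98 and 6.10 CPM in DMSO and at 8.87, 10.1, 13.5 and 17.1 CPM in alectinib. The treatments did not overlap in either line, although the EA3 DMSO library of day 5 stood well above the other 3. The rise was 4.49-fold in EA1 (log2 fold change 2.17, standard error 0.39, edgeR adjusted p = 0.00185) and 5.14-fold in EA3 (2.36, standard error 0.37, adjusted p = 0.000810), and without day 5 it was 2.68 on the log2 scale in EA3 and still passed the threshold. In EA2, Ifih1 had 2 counts over the 4 DMSO libraries and 3 over the 4 alectinib libraries, out of 37695324 and 33172506 counts, and no library held over 2. The pooled ratio of alectinib to DMSO in EA2 was 1.77 with an exact 95% counting interval of 0.202 to 21.2, so that a change of the size seen in EA1 and EA3 was not detectable at this depth.

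LGP2 (Dhx58, chromosome 11 from 100694884 to 100704271, minus strand), a relative of RIG-I and MDA5 that lacks their signaling domain, was low throughout. Dhx58 ranged from 0 to 1.07 CPM over the 16 libraries of EA1 and EA2, about the level of 0 to 12 counts. In EA3 it stood at 0.808, 0.933, 1.72 and 3.95 CPM in DMSO and at 0.831, 1.42, 2.92 and 6.28 CPM in alectinib, highest on day 5 under both treatments. The log2 fold changes were 0.20, -0.27 and 0.54 for EA1, EA2 and EA3, and none passed the threshold (edgeR adjusted p = 0.831, 0.794 and 0.466). The interval in EA3 ran from 0.656-fold to 3.21-fold. Of the RIG-I-like receptors, both that signal through MAVS thus had values past the threshold and LGP2 did not, but no difference between genes was tested.

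Tlr3, the endosomal receptor for double-stranded RNA (chromosome 8 from 45395665 to 45411080, minus strand), rose in EA1 and EA3. In EA3 it stood at 7.54, 4.20, 3.03 and 4.61 CPM in DMSO on days 1, 2, 3 and 5 and at 14.1, 18.5, 18.9 and 17.5 CPM in alectinib, a 3.69-fold rise (log2 fold change 1.88, standard error 0.36, edgeR adjusted p = 0.00224). In EA1 it stood at 4.39, 5.57, 1.60 and 4.14 CPM in DMSO and at 5.89, 7.72, 9.63 and 7.96 CPM in alectinib. The EA1 rise was 2.07-fold (1.05, standard error 0.37, adjusted p = 0.0473) and without day 3, which held the lowest DMSO and the highest alectinib library, the log2 fold change was 0.57 (adjusted p = 0.261). Without day 2 or day 5 the size stayed at 1.19 and 1.05 but the call was lost (adjusted p = 0.0819 and 0.131). In EA2 the treatments overlapped, at 3.22, 2.68, 1.60 and 2.84 CPM in DMSO and 3.56, 2.65, 3.72 and 6.41 CPM in alectinib (0.64, standard error 0.39, adjusted p = 0.262). The effect was larger by 1.24 on the log2 scale in EA3 than in EA2 (95% interval 0.09 to 2.39), which did not pass the threshold over all genes (unadjusted p = 0.0389, edgeR adjusted p = 0.242).

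Zbp1, a sensor of left-handed double-stranded nucleic acid (chromosome 2 from 173206612 to 173218923, minus strand), held at most 2 counts in any EA1 or EA2 library. In EA3 it had 1, 5, 0 and 17 counts in DMSO on days 1, 2, 3 and 5 and 3, 8, 14 and 46 counts in alectinib. The alectinib library was the higher on each of the 4 days in EA3, and the treatments overlapped. Pooled over days, the EA3 ratio was 2.58 (exact 95% counting interval 1.59 to 4.33, which leaves out the spread between days), and 0.0897 to 2.80 CPM in DMSO libraries with a count compared with 0.277 to 4.98 CPM in alectinib. The gene did not pass the filter on low counts and was not tested in the fit reported here. With no filter its EA3 log2 fold change was 1.43 (edgeR adjusted p = 0.279). It also passed the filter without day 1 (1.45, adjusted p = 0.255) and without day 2 (1.67, adjusted p = 0.224), and no line passed the threshold in these 3 fits.

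MAVS, the adaptor shared by RIG-I and MDA5, was not called in any line. Mavs (chromosome 2 from 131234063 to 131248025, plus strand) stood at 27.4 to 45.9 CPM in EA1 DMSO and 31.8 to 36.1 CPM in EA1 alectinib. In EA2 it stood at 61.4, 49.9, 62.8 and 53.0 CPM in DMSO on days 1, 2, 3 and 5 and at 45.7, 39.4, 50.8 and 53.3 CPM in alectinib. In EA3 the DMSO libraries held 47.5 to 50.1 CPM and the alectinib libraries 33.3 to 45.2 CPM, without overlap, a separation in this direction that 10.7% of all genes showed. Alectinib was the lower on 3 of 4 days in EA1 and EA2 and on all 4 in EA3, yet the log2 fold changes of -0.16, -0.27 and -0.28 (standard errors 0.15, edgeR adjusted p = 0.426, 0.212 and 0.161) did not pass the threshold. Their 95% intervals left out a fall below 0.661-fold.

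TBK1, the kinase below MAVS (Tbk1, chromosome 10 from 121546455 to 121586787, minus strand), moved little. In EA2 it stood at 35.6, 42.5, 29.8 and 33.1 CPM in DMSO on days 1, 2, 3 and 5 and at 50.1, 51.8, 40.5 and 58.2 CPM in alectinib, a 1.42-fold rise (log2 fold change 0.51, standard error 0.14, edgeR adjusted p = 0.0147). In EA3 it stood at 39.3, 35.6, 35.5 and 29.3 CPM in DMSO and at 43.8, 49.3, 42.9 and 46.1 CPM in alectinib, a 1.31-fold rise (0.39, standard error 0.14, adjusted p = 0.0446). In EA1 it stood at 32.6 to 54.2 CPM in DMSO and 40.6 to 47.1 CPM in alectinib (0.07, standard error 0.14, adjusted p = 0.705). The Tbk1 calls in EA2 and EA3 were lost when any 1 of the 4 days was left out, while the log2 fold changes stayed at 0.40 to 0.58 and 0.30 to 0.47. The difference between EA2 and EA1 was 0.44 (95% interval 0.02 to 0.85, unadjusted p = 0.0400, edgeR adjusted p = 0.180).

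**Figure D2:**
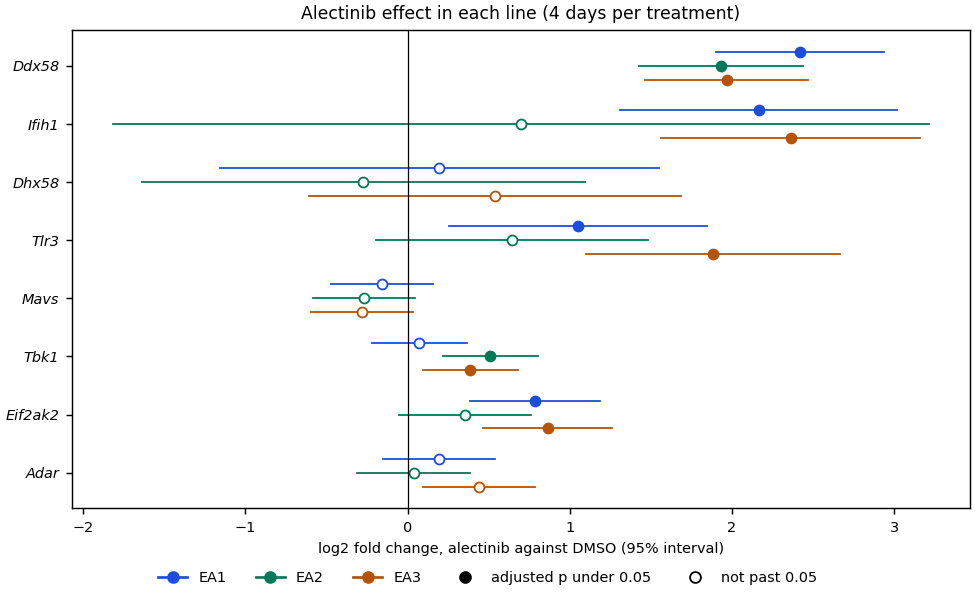
Log2 fold change of alectinib against DMSO (horizontal axis) for the 8 tested members in each line, with 95% intervals from the edgeR fit and filled points where the adjusted p was under 0.05. Ddx58 lies near 2 in all 3 lines, Mavs lies just below 0, and the Ifih1 interval in EA2 spans from -1.82 to 3.21.

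Among the double-stranded RNA binding enzymes, PKR was called higher in 2 lines, and ADAR lay just outside the threshold in EA3. Eif2ak2, which encodes PKR (chromosome 17 from 78852564 to 78882573, minus strand), stood at 33.1, 26.6, 21.4 and 24.3 CPM in EA1 DMSO on days 1, 2, 3 and 5 and at 46.4, 43.0, 47.9 and 42.4 CPM in EA1 alectinib. In EA3 it stood at 49.4, 36.3, 52.4 and 34.9 CPM in DMSO and at 58.3, 72.8, 85.1 and 101 CPM in alectinib. The treatments did not overlap in EA1 or EA3, and the rises were 1.72-fold (log2 fold change 0.79, standard error 0.19, edgeR adjusted p = 0.00628) and 1.82-fold (0.86, standard error 0.18, adjusted p = 0.00365). Without day 3 the EA1 value was 0.62 (adjusted p = 0.0835), and without day 2 the EA3 value was 0.77 (adjusted p = 0.0520). EA2 held 16.8 to 23.4 CPM in DMSO and 20.8 to 32.8 CPM in alectinib (0.35, standard error 0.19, adjusted p = 0.200), with alectinib the higher on each of the 4 days.

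Adar (chromosome 3 from 89715022 to 89753446, plus strand) edits adenosines in double-stranded RNA. It held 42.3, 30.9, 47.6 and 36.1 CPM in EA3 DMSO on days 1, 2, 3 and 5 and 51.4, 51.5, 49.9 and 58.0 CPM in EA3 alectinib, without overlap. The EA3 log2 fold change of 0.44 (standard error 0.16, edgeR adjusted p = 0.0505) did not pass the threshold. It passed in 4 of 12 alternatives, DESeq2 among them (0.43, adjusted p = 0.0466). Over the 12 alternatives the value ran from 0.15 to 0.56. In EA1 and EA2 the treatments overlapped and the log2 fold changes were 0.19 and 0.04 (adjusted p = 0.371 and 0.899). Adar shares 16.8% of its exon bases with Chrnb2 on the other strand, and Chrnb2 had at most 19 counts in any library.

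The row of Trex1, a DNA exonuclease gene (chromosome 9 from 109057933 to 109059734, minus strand), held 0 counts in all 26 libraries. Every exon base of Trex1 (100%) also lies in an exon of Atrip on the same strand, and Atrip had 50 to 215 counts per library. A counter that drops reads shared by overlapping genes leaves no base to count for Trex1, so its level cannot be read from this table. No other member shared exon bases with a gene on its own strand.

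The time course showed no detectable growth or decline of the alectinib effect for any tested member. The slope of the effect per doubling of days passed the threshold for 0 of 8 members in each line in edgeR and in DESeq2, where the share of all genes was 0.021% for EA1, 0% for EA2 and 0.0491% for EA3. At an unadjusted p under 0.05 there was 1 member, Eif2ak2 in EA3, at 0.49 per doubling (95% interval 0.12 to 0.85, edgeR adjusted p = 0.250). Its daily log2 ratios of alectinib to DMSO were 0.24, 1.00, 0.70 and 1.52. For Ddx58 the slopes were -0.03, 0.20 and -0.14 in EA1, EA2 and EA3, and its ratio was already 2.32, 1.78 and 2.10 on day 1. Tlr3 had slopes of 0.44, 0.52 and 0.52, none past the threshold, with ratios on day 1 of 0.40, 0.13 and 0.89. Levels within a treatment did not drift past the threshold for any of the 8 members in any of the 6 groups in edgeR or DESeq2 (background 0%, 0.0631% and 0.491% for EA1, EA2 and EA3 with alectinib, 3.64%, 0% and 11.3% with DMSO). In EA3, an unadjusted p under 0.05 was reached by 2 members in DMSO, Ifih1 (0.81 per doubling) and Dhx58 (1.00), and by 2 in alectinib, Dhx58 (1.28) and Eif2ak2 (0.34).

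**Figure D3:**
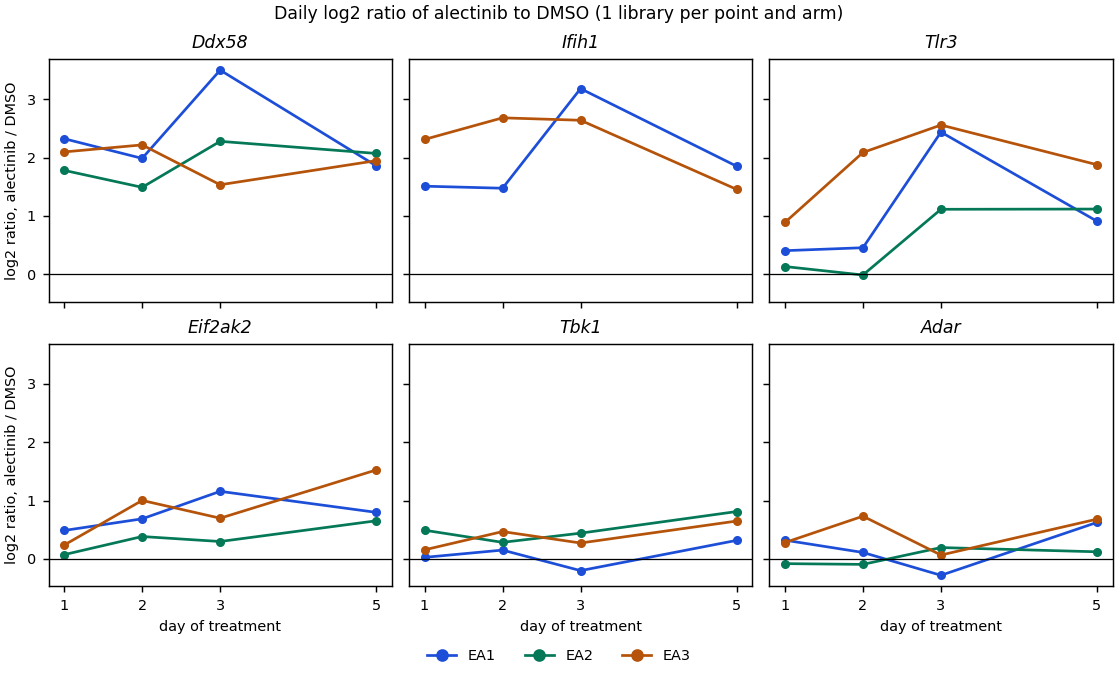
Log2 ratio of alectinib to DMSO (vertical axis) on each day of treatment (horizontal axis) for 6 members, 1 line per cell line, with 1 library per treatment behind each point. Ddx58 is at or above 1.49 on every day in every line, and Ifih1 in EA2, which held at most 2 counts per library, is not drawn.

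No member passed the test of a difference in effect between the lines (0 of 8 in edgeR and in DESeq2, with 0 at an unadjusted p under 0.05, while 6.84% of all genes passed). In the comparisons of line pairs, 2 reached an unadjusted p under 0.05, Tlr3 between EA3 and EA2 and Tbk1 between EA2 and EA1, as given above. The lines did differ in level without drug. In the DMSO libraries, 2 of the 7 members that passed the filter on low counts differed between lines, Ifih1 and Eif2ak2 (edgeR, 2 degrees of freedom). Of all genes, 55.6% did. In line pairs, the share of all genes that differed was 40.8% for EA2 and EA1, 32.6% for EA3 and EA1 and 36.5% for EA3 and EA2. Over 4 libraries each, Ifih1 had 40 counts for EA1, 2 for EA2 and 82 for EA3. Its pooled level was 22.2 times as high in EA1 as in EA2 (exact 95% counting interval 5.75 to 189). In EA3 it was 48.5 times as high as in EA2 (13.0 to 408). The edgeR adjusted p-values were 0.000636 and 8.36e-05. Ifih1 had at most 1 count in any EA2 DMSO library and passed the filter through its level in the other lines. These edgeR values therefore rest on the lines where it is high. EA3 and EA1 differed by 1.08 on the log2 scale (95% interval 0.08 to 2.09, adjusted p = 0.0936). Eif2ak2 was higher in EA3 than in EA1 by 0.72 (standard error 0.18, adjusted p = 0.00931) and than in EA2 by 1.17 (standard error 0.18, adjusted p = 0.000371). Pairwise, Mavs was also higher in EA2 than in EA1 by 0.53 (adjusted p = 0.0290) and Tlr3 higher in EA3 than in EA2 by 0.93 (adjusted p = 0.0403). Both calls were lost without day 1, day 3 or day 5, and that of Tlr3 also without day 2. With a day left out, the Tlr3 difference stayed at 0.78 to 0.98 and the Mavs difference ran from 0.34 to 0.69. Ddx58, with 6.53, 9.38 and 11.0 CPM on average in EA1, EA2 and EA3 DMSO, did not pass in any pair.

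Per kilobase of exon, the adaptor Mavs and the kinase Tbk1 had the highest levels among members in DMSO, and the RIG-I-like receptors, Tlr3 and Zbp1 the lowest. In EA2, Mavs stood at 16.98 CPM per kb, Tbk1 at 9.01, Eif2ak2 at 3.86, Adar at 3.56, Ddx58 at 1.33, Tlr3 at 0.496, Dhx58 at 0.213, Zbp1 at 0.0232 and Ifih1 at 0.00537 (means of 4 days). The order was the same in EA3 except that Ifih1 (0.340) stood above Zbp1 (0.246). The ranges of Eif2ak2 and Adar overlapped in EA1 and EA2, those of Mavs and Tbk1 in EA1, those of Tbk1 and Eif2ak2 in EA3, those of Ddx58 and Tlr3 in EA1 and EA3, those of Tlr3 and Dhx58 in all 3 lines, those of Dhx58 and Ifih1 in EA1 and EA3, and those of Ifih1 and Zbp1 in EA2 and EA3, so that the order of the last pair is not set. With alectinib, Ddx58 reached 4.62, 5.18 and 6.07 CPM per kb by line, where its range overlapped that of Adar in all 3 lines and that of Eif2ak2 in EA2. Ifih1 with alectinib reached 0.644 in EA1 and 1.52 in EA3, below Tlr3 at 1.498 and 3.32 without overlap. In EA3 alectinib, Eif2ak2 had the highest mean at 15.5, with a range that overlapped that of Mavs at 12.1.

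**Figure D4:**
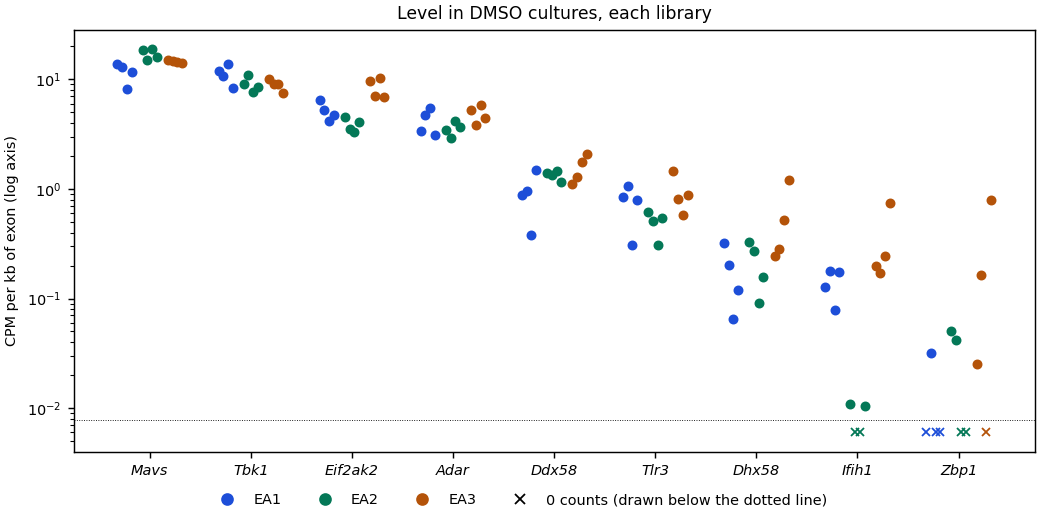
CPM per kilobase of exon (vertical log axis) in each of the 12 DMSO libraries for 9 members, by line. Mavs and Tbk1 stand highest, and in EA2 the Ifih1 libraries are at 0 counts, drawn below the dotted line, or at 1 count.

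The other genes of these pathways, 79 genes in 9 lists, moved both ways. Of the 59 tested, EA1 had 16 higher and 11 lower (27.1% and 18.6%), EA2 had 6 higher and 10 lower (10.2% and 16.9%) and EA3 had 15 higher and 9 lower (25.4% and 15.3%). The shares of all tested genes were 19% and 14.6%, 13% and 11.3%, and 17.5% and 15.1%. With a day left out, the genes called higher numbered 10 to 12, 2 to 4 and 9 to 11 by line, and those called lower 4 to 9, 4 to 8 and 6 to 10. With no replicate block EA2 had 3 higher and 5 lower. The median log2 fold change of the 59 by line was 0, -0.09 and 0.01, beside 0.06, 0 and 0.07 over all genes. In all 3 lines, Nlrx1, Samhd1 and Il10rb were higher and Enpp1 and Eif2s1 lower, which 5.78% and 4.23% of all genes were. Leaving out a day left 1 to 2 of these 5 called in all 3 lines. Of the 39 calls given below for pathway genes named by rule, 14 held with each day left out in turn and 25 were lost with at least 1 day left out. The 14 were Samhd1 in all 3 lines, Il10rb and Ppp1r15b in EA1 and EA3, Nlrx1 and Irak4 in EA1, Tmem173, Ticam1 and Mlkl in EA2, and Oasl1 and Eif2ak3 in EA3.

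RIG-I-like receptor signaling genes gave 3, 2 and 4 higher and 1, 1 and 0 lower of 17 tested in EA1, EA2 and EA3, where the higher genes are 17.6%, 11.8% and 23.5% beside 19%, 13% and 17.5% of all genes. Nlrx1, a mitochondrial NOD-like protein described as a regulator of MAVS, had the largest rise of the list in each line. Its log2 fold changes were 1.89, 1.86 and 1.82 (edgeR adjusted p = 0.00676, 0.0273 and 0.0221), from means of 2.55, 0.400 and 0.459 CPM in DMSO. The EA2 and EA3 means lie under the floor of some DMSO libraries, so that these 2 rises rest on few counts. With 1 of the 4 days left out in turn, the EA2 call held in 1 fit and the EA3 call in 2. Dhx36, an RNA helicase, fell in EA1 by 0.50 (adjusted p = 0.0242), and Azi2, an adaptor of TBK1, fell in EA2 by 0.36 (adjusted p = 0.0424).

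Of 13 cytosolic DNA sensing genes, 3 were higher and 4 lower for EA1, 2 and 5 for EA2, 1 and 5 for EA3. The lower genes are 30.8%, 38.5% and 38.5%, beside 14.6%, 11.3% and 15.1% of all genes. Tmem173, which encodes STING, fell from 39.2 ± 3.87 CPM (SD, n = 4 days) to 8.41 ± 3.89 CPM in EA2 (log2 fold change -2.31, edgeR adjusted p = 0.000202) and from 26.6 ± 13.7 to 10.8 ± 1.88 CPM in EA3 (-1.18, adjusted p = 0.0112). In EA1 its log2 fold change was -0.43 (adjusted p = 0.294), and the effect differed between lines (edgeR, 2 degrees of freedom, adjusted p = 0.0470). Samhd1, which hydrolyses deoxynucleotides, rose from 121 ± 20.4 to 335 ± 25.6 CPM in EA2 (1.49, adjusted p = 4.99e-05), and by 0.87 in EA1 and 0.92 in EA3. Enpp1, which degrades the STING ligand cGAMP, fell by 0.88, 0.96 and 0.95 in EA1, EA2 and EA3 (adjusted p = 0.0455, 0.0373 and 0.0325). Cgas, the enzyme that makes cGAMP, passed the threshold in EA1 from a mean of 0.0279 CPM to 0.276 CPM, both at or under the floor of some libraries. It passed the filter through its level in the other lines, and the call was lost with each day left out, so that this call among the 3 higher genes rests on few counts. Lrrfip1, a nucleic acid binding protein, fell in EA1 by 0.95 (adjusted p = 0.0117).

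The endosomal Toll-like receptor list had 1 gene higher and 0 lower of 6 tested in each line, or 16.7%, beside 19%, 13% and 17.5% of all genes called higher. Unc93b1, a chaperone of these receptors and 1 of the 6, had 0 CPM in every EA1 library and could not be called there. Ticam1, which encodes TRIF, the adaptor of TLR3, rose from 10.9 ± 4.43 to 25.9 ± 8.19 CPM (SD, n = 4 days) in EA2 (log2 fold change 1.26, edgeR adjusted p = 0.000878) and from 24.6 ± 12.3 to 39.6 ± 6.97 CPM in EA3 (0.79, adjusted p = 0.0115). In EA1 the gene higher was Irak4, a kinase of the MYD88 branch (0.81, adjusted p = 0.00646). Tlr7, Tlr8, Tlr9 and Tlr13 did not pass the filter on low counts.

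Among the oligoadenylate synthetase genes, Oas1a, Oas1b, Oas1c, Oas1g, Oas2 and Oas3 did not pass the filter on low counts. Oasl2, an OAS-like gene, rose in EA1 by 2.12 (edgeR adjusted p = 0.0194). Its EA1 DMSO mean was 0.265 CPM, under the floor of each EA1 DMSO library. In EA3 it rose by 1.66 from a DMSO mean of 4.21 CPM (adjusted p = 0.0145). Each of these calls held with 2 of the 4 days left out and was lost with the other 2, and the EA1 rise rests on few counts. Oasl1 fell in EA3 from 29.3 ± 25.3 to 5.03 ± 1.56 CPM (SD, n = 4 days; -2.19, adjusted p = 0.00196).

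Interferon genes themselves were not detected at testable levels, because none of Ifnb1, Ifna1, Ifna2, Ifna4, Ifna5, Ifnk, Ifnl2 and Ifnl3 passed the filter. The 4 tested receptor genes gave 3, 1 and 3 higher and 1, 0 and 0 lower in EA1, EA2 and EA3. Of all genes, 19%, 13% and 17.5% were called higher and 14.6%, 11.3% and 15.1% lower. Il10rb, a subunit of the interferon lambda receptor, rose by 1.22, 0.73 and 1.04 (edgeR adjusted p = 0.000428, 0.0118 and 0.00102), while Ifnlr1, its partner, fell in EA1 by 0.96 (adjusted p = 0.0325).

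The last lists described are those around ZBP1, PKR and ADAR. Of 5 genes of the ZBP1 death pathway, Mlkl, the executor of necroptosis, fell in EA1 by 0.66 and in EA2 by 0.87 (edgeR adjusted p = 0.0106 and 0.00282). In EA3, Ripk1 rose by 0.37 (adjusted p = 0.0312) and Casp8 fell by 0.65 (adjusted p = 0.0127). Eif2s1, which encodes the PKR substrate eIF2alpha, fell by 0.58, 0.50 and 0.59 in EA1, EA2 and EA3 (adjusted p = 0.00887, 0.0250 and 0.00872). Among the other eIF2alpha kinases, Eif2ak1 rose in EA1 by 0.52 (adjusted p = 0.0107) and Eif2ak3 in EA3 by 1.26 (adjusted p = 0.000313), while Eif2ak4 fell in EA1 by 0.57 (adjusted p = 0.0173). Eif2ak4 was named after its values were seen, and its call held with 1 of the 4 days left out. Ppp1r15b, a phosphatase subunit for eIF2alpha, fell in EA1 and EA3 by 0.73 in each (adjusted p = 0.00390 and 0.00396). Of 2 tested RNA editing enzymes besides Adar, Adarb1 rose in EA1 by 1.01 and fell in EA2 by 1.10 (adjusted p = 0.0176 in each), and Adat1, a tRNA deaminase, fell in EA1 by 0.65 (adjusted p = 0.0216).

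**Figure D5:**
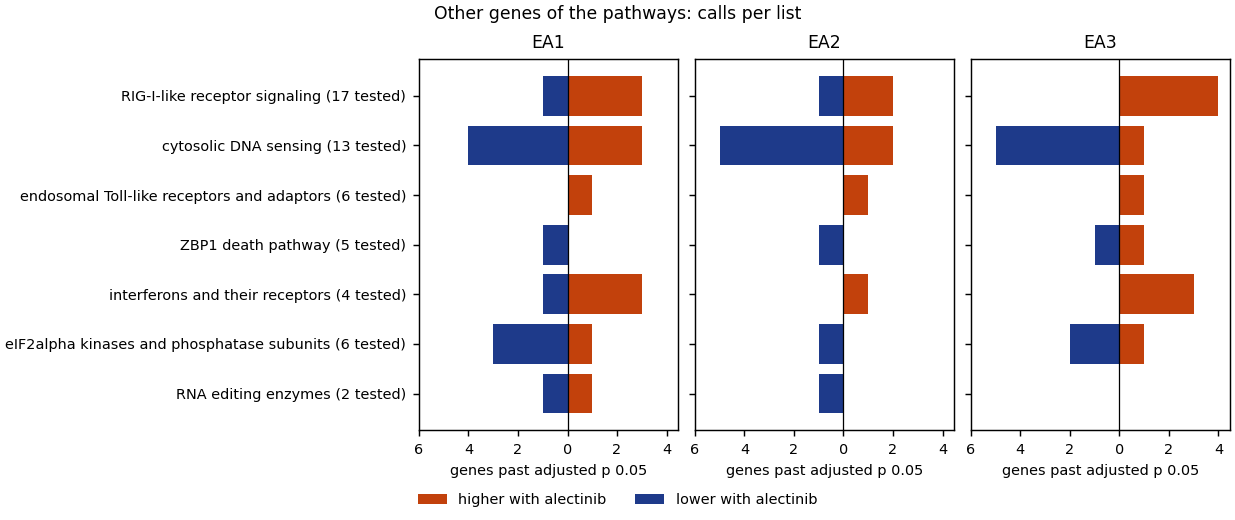
Number of genes past an adjusted p of 0.05 (horizontal axis) in 7 of the pathway lists, higher with alectinib to the right and lower to the left, in EA1, EA2 and EA3. Cytosolic DNA sensing has 4, 5 and 5 lower genes of 13, and lists differ in length.

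The genes whose 12 daily log2 ratios (3 lines by 4 days) ran most like those of Ddx58, among non-members with an average log2 CPM of at least 3, were Faap100 (Pearson r = 0.898), Mtus1 (0.895), Sord (0.879), Gm2a (0.879) and Rap1gap2 (0.855). The points share lines and libraries, so these values describe likeness of shape only. Mtus1 rose with alectinib by 2.99, 2.77 and 2.21 on the log2 scale, whereas Rap1gap2 had log2 fold changes of -0.93, -1.38 and -1.37. Among the members, Mavs came closest (r = 0.763), followed by Ifih1 (0.456), Tlr3 (0.398), Dhx58 (0.368) and Eif2ak2 (0.340), and those of Adar and Tbk1 were negative (-0.219 and -0.514). The Ifih1 value includes 4 EA2 days with at most 2 counts per library.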

How the data were processed

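Poly(A) RNA of murine EML4-ALK lines was sequenced from stranded libraries with 2 x 151 base reads. The values are raw counts per gene as the authors deposited them, from STAR alignments to mm10 of reads cleared of adapter sequence by bbduk, with FastQC for quality; the strand column and annotation release of the counter are not given in the sources used here. Date numbers in place of a symbol (24 rows, 0.129% to 0.201% of counts) were left out. Symbols were matched ignoring case. Tests used edgeR 4.0.16 (TMM, filterByExpr, robust quasi-likelihood) in R 4.3.3, a block for each of 12 combinations of line and day and an alectinib effect for each line; further fits covered slopes on log2(day) and the 12 DMSO libraries. Day pairs come from the labels, and deviations of paired libraries correlated between -0.300 and 0.549. CPM were scaled by TMM factors, and daily ratios used a prior count of 2. DESeq2 1.42.0 and other settings served as alternatives. Calculations were tested on simulated data. All 10 members are described; of other pathway genes, those past the threshold in all 3 lines in 1 direction and the largest rise and fall per list and line are named. Members and lists were chosen with earlier results of these data known. Counts per list cover all listed genes; some genes of the lists are not reported here by name.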

Additional observations from a re-analysis of the deposited data

Results flagged for a closer look

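In 53 groups of 4 libraries, 3 held a library far from the other 3 by Dixon's criterion, which chance alone gives in about 1 of 20 groups. Ifih1 in EA3 DMSO stood at 6.10 CPM on day 5 against 1.3995 to 1.98 CPM on the other days, and Dhx58 and Zbp1 were also highest in that library among EA3 DMSO libraries. Tbk1 in EA1 alectinib stood at 40.6 CPM on day 5 against 46.9 to 47.1 CPM. Zbp1 in EA1 DMSO stood at 0.111 CPM on day 2, which is 1 count, against 0 on the other days.

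The alectinib effect differed between lines for 3 of the named pathway genes (edgeR, 2 degrees of freedom). Adarb1 (adjusted p = 0.0215) rose in EA1 and fell in EA2. Casp8 (adjusted p = 0.0362) fell in EA3 by 0.65 on the log2 scale, beside values of 0.43 for EA1 and -0.43 for EA2 that were not called. Tmem173 (adjusted p = 0.0470) fell in EA2 and EA3.

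The 2 libraries labelled EA3 day 7 were outside the comparisons, and the counting interval of the alectinib to DMSO ratio lay above 1 for 3 members and below 1 for 2. The CPM ratio was 3.09 for Ddx58 (exact 95% counting interval 2.48 to 3.87), 7.78 for Tlr3 (3.61 to 19.96, from 7 DMSO counts) and 2.10 for Tbk1 (1.81 to 2.44). Ifih1 had 0 and 1 counts in these libraries, against 12 to 37 counts in EA3 DMSO libraries of the other days and at most 2 in any EA2 library. Below 1 were the ratios of Adar at 0.544 (0.465 to 0.636) and Mavs at 0.683 (0.598 to 0.779). With 1 library per treatment there was no test.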

How the results depend on the processing

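Ddx58 passed the threshold in every line under each of the 12 alternatives run, Ifih1 under 11 of 11 in EA1 and in EA3, and Tlr3 under 12 of 12 in EA3. The calls of Tlr3 in EA1 (7 of 12), of Tbk1 in EA2 (6 of 12) and in EA3 (5 of 12) and of Eif2ak2 in EA1 and EA3 (11 of 12 each) did not always hold. Adar in EA3 passed under 4 of 12. Of the comparisons of single genes with an alternative, 891 kept direction and call, 119 lost the call, 5 gained it and 13 turned, none of the last called either way; the causes were not tested.

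Leaving out a day moved the members called higher to between 2 and 4 for EA1, to 1 for EA2 and to between 3 and 5 for EA3. Requiring a log2 fold change of at least 1 left 1 member in EA2 and 3 in EA3, and in EA2 the fit with no filter and that of all 26 libraries left 1 each. With all 26 libraries, 1 member was lower in EA3 (Mavs, -0.37, adjusted p = 0.0458). Members that differed between lines in DMSO numbered 4 with no filter. Differences of effect, slopes and drifts stayed at 0 members.

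Pathway genes called higher came with a day left out to between 10 and 12 for EA1, 2 and 4 for EA2, 9 and 11 for EA3, and those lower to between 4 and 9 for EA1, 4 and 8 for EA2. At a log2 fold change of at least 1, EA1 had 0 lower, EA2 3 higher and 4 lower, and EA3 6 higher and 2 lower. Lines fitted alone gave 7 lower in EA1.

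Without the block of line and day, the members called higher were 4 for EA1, 2 for EA2 and 4 for EA3, and those that differed in DMSO 2. Pathway genes in EA2 then were 3 higher and 5 lower, and pathway genes called in all 3 lines fell from 5 to 2.

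Values that turned with a day left out were those of Dhx58 in EA1 (-0.088 to 0.71) and EA2 (-0.84 to 0.27), Tbk1 in EA1 (-0.052 to 0.13), Adar in EA2 (-0.019 to 0.079) and Tbk1 between EA3 and EA2 in DMSO (-0.072 to 0.073). The last was -0.13 by library size alone, -0.012 with no filter and -0.0068 with at least 10 counts in every library. Adar in EA2 was -0.012 by library size alone, and Tbk1 in EA1 was -0.0051 with all 26 libraries. Library size alone moved the median log2 fold change of all genes in EA3 from 0.067 to 0.18 and the genes called higher and lower there from 2493 and 2157 to 3060 and 1666. Low counts limited Ifih1 in EA2, Dhx58 and Zbp1.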
